A study of Mus musculus with 23 samples.

Results

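The genes described here encode non-keratin intermediate filament proteins: vimentin (Vim), desmin (Des), nestin (Nes) and the nuclear lamins A/C (Lmna) and B1 (Lmnb1). Members were all probe sets annotated to these 5 symbols in the deposited table of array values. The annotation names 4 of the 5 genes, each by 1 probe set, so that 4 of 12436 non-control probe sets were members and Lmna was not analysed here. The probe sets are 101046_at (Vim), 100997_at (Des), 103549_at (Nes) and 100132_at (Lmnb1).

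The study measured total RNA of mouse embryonic stem (ES) cells on 1-colour microarrays, 23 arrays in 12 groups. Cells of 4 lines were transfected with 1 of 3 plasmids, and RNA was taken 72 hours later. The lines were E14wt, labelled as wild type, E99 (labelled +/-, also written E14-99+/- or E99-/+), E81 (-/-) and E100 (-/-). The plasmids were vector, SRFdM-VP16, which the labels call a control, and SRF-VP16. Each line and plasmid had 2 arrays, except E100 with vector, which had 1. All groups, the controls included, carried a plasmid, so no untransfected cells were measured, and which gene is meant by +/- and -/- is not stated. Each -/- line stands for 1 line only, and nothing in the labels says that duplicates came from separate cultures. The p-values therefore measure the spread between these arrays, which may be technical.

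Intermediate filament proteins form rope-like polymers that give cells and nuclei mechanical strength, and their genes are switched on by cell type. Vimentin is typical of mesenchymal cells and of cells in culture, desmin of muscle, and nestin of neural and other progenitors, where it co-assembles with vimentin. Lamins line the inside of the nuclear membrane, and B-type lamins are made by nearly all cells, ES cells included. Serum response factor (SRF) is a transcription factor that binds the CArG box in promoters of growth-response, cytoskeletal and muscle genes, and VP16 is a strong viral activation domain.

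Promoter sequences from RefSeq (GRCm38.p6) are shown for 3 of the 4 measured members. They show what lies just upstream of the genes whose levels are compared. The promoter of Lmnb1 was left out of the search described below. Each run covers the 250 bases before the start of the gene, on the + strand: Vim at chr2:13574061-13574310, Des at chr1:75360042-75360291 and Nes at chr3:87970843-87971092. Capitals mark matches, on either strand, to the GC box GGGCGG, the E-box CANNTG, the ETS core CCGGAA and the letters TATAAA.
Nes: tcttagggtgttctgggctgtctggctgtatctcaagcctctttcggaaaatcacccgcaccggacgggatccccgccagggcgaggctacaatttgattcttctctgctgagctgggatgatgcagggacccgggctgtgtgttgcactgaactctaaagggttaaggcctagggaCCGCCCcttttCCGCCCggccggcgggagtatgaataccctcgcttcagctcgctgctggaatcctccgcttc
Des: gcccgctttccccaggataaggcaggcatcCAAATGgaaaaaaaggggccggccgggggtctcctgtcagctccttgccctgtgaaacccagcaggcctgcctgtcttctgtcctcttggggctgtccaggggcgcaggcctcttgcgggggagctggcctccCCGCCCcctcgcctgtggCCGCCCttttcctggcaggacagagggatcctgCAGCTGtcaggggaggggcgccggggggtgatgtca
Vim: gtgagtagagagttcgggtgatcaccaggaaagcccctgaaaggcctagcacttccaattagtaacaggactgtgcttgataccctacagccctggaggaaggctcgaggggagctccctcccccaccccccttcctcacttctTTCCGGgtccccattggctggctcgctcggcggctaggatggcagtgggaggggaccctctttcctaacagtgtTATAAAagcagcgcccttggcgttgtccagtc

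The Nes promoter held 2 GC boxes, beginning 73 and 62 bases before the start, and the Des promoter 2, at 87 and 69 bases. Des also held 2 E-boxes, the letters bound by muscle regulators of the MyoD family, at 220 and 36 bases before the start. Vim held an ETS core at 106 bases and TATAAA at 32 bases. The search covered 32851 promoter windows of 300 bases (250 before to 50 after the start), without chromosome 18, which carries Lmnb1. A GC box occurred in 35.7% of them, an E-box in 72.3%, an ETS core in 14.9% and TATAAA in 13.6%. The CArG box, in the strict letters CCWWWWWWGG (W is A or T), was found in 1.63% of the windows and in 0 of these 3. Sites with a mismatch to these letters were not searched. The AP-1 letters TGANTCA were found in 7.81% and in 0 of the 3. These are matches of letters in a short window and say nothing of sites elsewhere.

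The deposited intensities can fall below 0. Values of 0 or less made up 23.5% to 43.6% of each array, and array medians ran from 53.5 to 207. E81 with SRFdM-VP16, replicate 1, stood apart: its median correlation with the other arrays was 0.878, its Gapdh 5' to 3' log2 ratio was -0.93, and it had the highest share of values at or below 0. The ES cell markers Pou5f1 (5994 to 29982) and Sox2 (7308 to 21958) were far above background on all 23 arrays, which are labelled as ES cells. Known SRF target genes were read as a check of the plasmid labels. In the -/- lines Egr1 was higher by 6.11, Acta2 by 7.60 and Tagln by 7.61 on the log2 scale with SRF-VP16 than with SRFdM-VP16 (limma adjusted p = 1.5e-05, 0.0088 and 0.00093). The same differences were 2.59, 3.004 and 1.88 in wild type (adjusted p = 0.94, 1 and 1) and 2.63, 5.05 and 3.53 in E99 (0.51, 0.91 and 0.93), and none of these passed. RNA of whole cultures was measured, so a change in the share of cells that make a transcript and a change in transcript per cell cannot be told apart.

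Nes was the member with the widest range, from -5 to 3889, with 21 of 23 arrays above 58. That value is the 40th percentile of all intensities and served as a floor: lower values were raised to it before log2 was taken. With SRF-VP16, Nes read 2587 and 2141 in E81, 3889 and 1216 in E100, 625 and 611 in E14wt, and 319 and 162 in E99. With SRFdM-VP16 it read 234 and 296 in E81, 388 and 285 in E100, 219 and 723 in E14wt, and 63 and -5 in E99. With vector it read 64 and 23 in E81, 339 on the 1 array of E100, 243.4 and 623 in E14wt, and 307 and 76 in E99. The 4 arrays of the -/- lines with SRF-VP16 lay above every other array, whose highest value was 723, and the wild-type arrays of the 3 plasmids overlapped. How many of all probe sets separate their arrays in this way was not counted, here or for the separations described below.

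In the -/- lines Nes rose 7.65-fold with SRF-VP16 against SRFdM-VP16, from 301 ± 64.1 to 2458 ± 1112 (SD, n = 4 arrays each). The log2 change was 2.93 ± 0.53 (SE), with a 95% interval of 1.79 to 4.08 and adjusted p = 0.0082 (limma). Nes was the single member called (1 of 4) in this comparison, where 2.82% of 9643 probe sets were called (2.48% higher and 0.342% lower), and 0.664% of probe sets had a larger log2 change. The change was 3.16 in E81 and 2.71 in E100, and with 2 arrays against 2 neither line passed alone (limma adjusted p = 0.068 and 0.12). A fit on the 4 compared groups only gave adjusted p = 0.059. Against vector, whose E81 arrays held the low Nes values of 64 and 23, the change was 3.98 (15.7-fold, adjusted p = 0.003).

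Des, the muscle filament gene, was above the floor on all 23 arrays, from 103 to 1045. With SRF-VP16 it read 814 and 1045 in E81, 937 and 616 in E100, 484 and 219 in E14wt, and 345 and 284 in E99. With SRFdM-VP16 it read 462 and 218 in E81, 320 and 281 in E100, 229 and 404 in E14wt, and 145 and 103 in E99. With vector it read 484 and 267 in E81, 362 in E100, 334.5 and 308 in E14wt, and 278 and 405 in E99. As for Nes, the 4 arrays of the -/- lines with SRF-VP16 lay above every other array, here above 484, and the 2 lowest arrays were those of E99 with SRFdM-VP16.

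In the -/- lines Des averaged 853 ± 184 with SRF-VP16 and 320 ± 103 with SRFdM-VP16 (SD, n = 4 each), without overlap. The difference of 1.44 ± 0.36 (2.71-fold, 95% interval 0.66 to 2.22) did not pass the 5% threshold (limma adjusted p = 0.053). It passed under 5 of 22 alternative settings. The difference was 1.71 without E81 SRFdM-VP16 replicate 1, the array that stood apart, 1.17 without replicate 2 and 1.21 against vector. A fit on the compared groups only gave limma adjusted p = 0.18. Averaged over the 4 lines, Des rose by 1.08 ± 0.26 (2.12-fold, adjusted p = 0.049) and Nes by 2.10 ± 0.38 (4.30-fold, adjusted p = 0.011). These were 2 of the 4 members, in a comparison in which 1.96% of probe sets were called (1.79% higher and 0.166% lower). The Des call over all lines held under 10 of 29 alternatives and the Nes call under 29 of 29. Leaving out any of 12 of the 16 arrays ended the Des call (0.94 to 1.15, adjusted p = 0.054 to 0.12), and the comparison shares its -/- arrays with the one above.

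**Figure D1:**
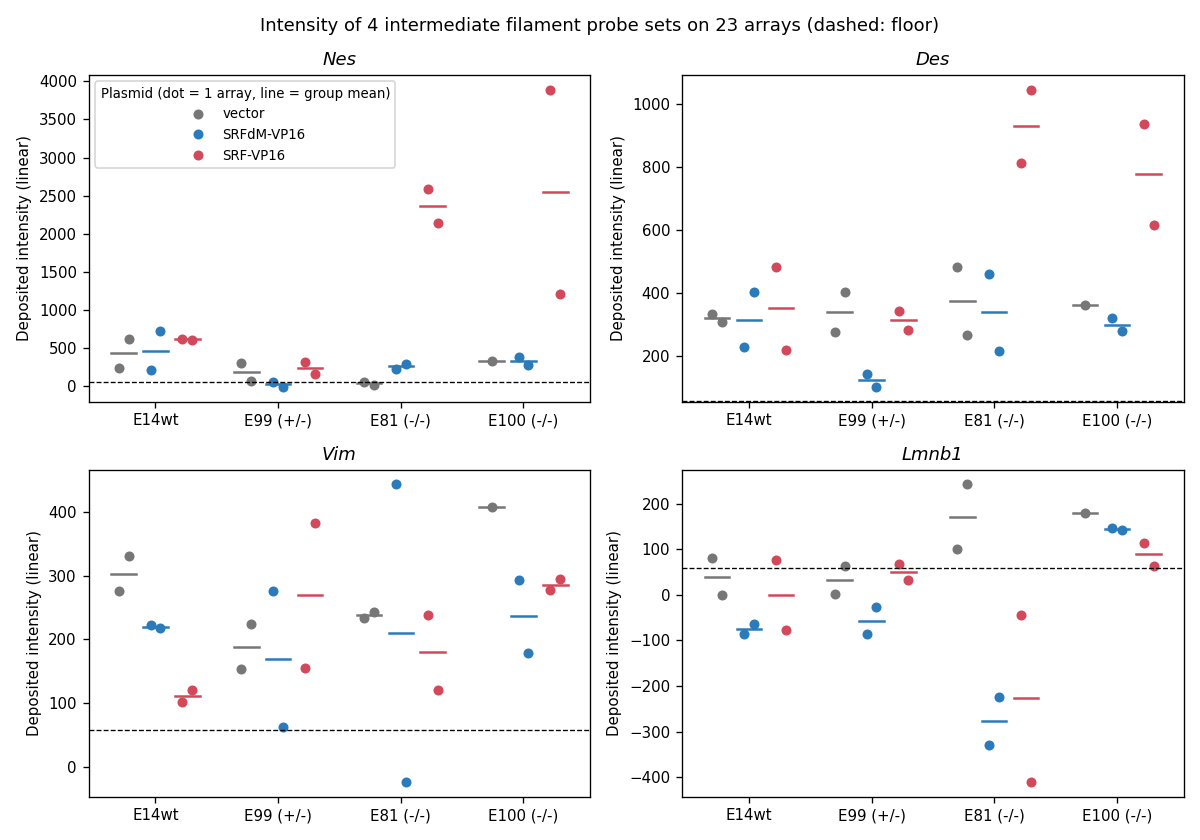
Deposited intensity (vertical axis, linear, each panel on its own scale) of the 4 probe sets on 23 arrays, by line and coloured by plasmid; dots are arrays, bars are group means and the dashed line is the floor of 58. Nes and Des stood highest in E81 and E100 with SRF-VP16, Vim showed no such order, and Lmnb1 was above the floor on 11 of 23 arrays, at most at 242.

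Vim, the filament gene of mesenchymal cells, was above the floor on 22 of 23 arrays but never above 443. With SRF-VP16 it read 239 and 121 in E81, 278 and 294 in E100, 102 and 120 in E14wt, and 156 and 383 in E99. With SRFdM-VP16 it read 443 and -23 in E81, 293 and 179 in E100, 222 and 218 in E14wt, and 276 and 62 in E99. With vector it read 234 and 243 in E81, 408 in E100, 275.5 and 331 in E14wt, and 153 and 224 in E99. The highest and the lowest value of all arrays were the duplicates of a single group, E81 with SRFdM-VP16, and the wild-type arrays with SRF-VP16 lay below both wild-type control plasmids.

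No change in Vim passed the threshold in any comparison. In the -/- lines it differed by 0.20 ± 0.60 (95% interval -1.09 to 1.49, limma adjusted p = 0.96; 0.94 without E81 SRFdM-VP16 replicate 1 and -0.53 without replicate 2), and in wild type by -0.99 ± 0.85 (adjusted p = 1). Its within-group SD on the log2 scale was 0.87, the widest of the members, against 0.77 for Nes and 0.48 for Des. Doublings and halvings of Vim thus lie inside the -/- interval and were not detectable with these arrays.

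Lmnb1, the lamin gene, had low values: 11 of 23 arrays lay above the floor and 10 at or below 0. With SRF-VP16 it read -44 and -410 in E81, 113 and 64 in E100, 77 and -78 in E14wt, and 68 and 33 in E99. With SRFdM-VP16 it read -330 and -224 in E81, 147 and 143 in E100, -86 and -65 in E14wt, and -86 and -27 in E99. With vector it read 101 and 242 in E81, 179 in E100, 79.7 and 0 in E14wt, and 2 and 64 in E99. E100 was above the floor with every plasmid, and E81 only with vector. A probe set at or below the floor does not show that a gene is silent.

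The Lmnb1 values moved with the background of the arrays, read as the share of values at or below 0. On 7 arrays between 34.1% and 43.6% of all values were at or below 0, and Lmnb1 was below 0 on all of them (-410 to -27). They were E81 with SRFdM-VP16 and with SRF-VP16, E99 with SRFdM-VP16 and replicate 1 of E14wt with SRFdM-VP16. On the other 16 arrays that share was 23.5% to 27% and Lmnb1 was below 0 on 2. The part of this background in the results was not tested.

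In the -/- lines Lmnb1 differed by -0.38 ± 0.24 between SRF-VP16 and SRFdM-VP16 (limma adjusted p = 0.56), and all 4 arrays of E81 in that comparison were at the floor. With vector as the control, Lmnb1 was lower by 1.25 on the log2 scale with SRF-VP16 (adjusted p = 0.026), a comparison that in E81 sets arrays of high against arrays of low background. With the control plasmids it was higher in the -/- lines than in wild type by 0.98 ± 0.22 (95% interval 0.51 to 1.45), which did not pass (adjusted p = 0.16). It was called under 2 of 25 alternatives: in E100 alone (1.36, limma adjusted p = 0.041) and without E81 vector replicate 1 (1.14). With the floor at the 60th percentile the difference was 0. Of the 4 wild-type arrays 1 was above the floor of 58, and of the 7 -/- arrays 5. Before flooring, the E81 arrays with SRFdM-VP16 (-330 and -224) read below those of wild type (-86 and -65).

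The wild-type and +/- lines gave no call among the members by limma. In wild type, where 0.0207% of probe sets were called, the SRF-VP16 change of Nes was 0.64 ± 0.75 and that of Des 0.10 ± 0.51 (adjusted p = 1 for both). There 0 of 4 members had an unadjusted p under 0.05, beside 346 of 9643 probe sets. The wild-type values depended on single arrays: Nes was -0.23 without E14wt SRFdM-VP16 replicate 1 and 1.497 without replicate 2, and Des was -0.47 without E14wt SRF-VP16 replicate 1 and 0.67 without replicate 2. In E99 (0.0415% called) the changes were 1.91 ± 0.75 for Nes and 1.36 ± 0.51 for Des (limma adjusted p = 0.91 and 0.88). Both genes had an unadjusted p under 0.05, as did 432 of 9643 probe sets. For both genes the 2 SRF-VP16 arrays of E99 lay above its 2 SRFdM-VP16 arrays, of which 1 was at the floor for Nes. The same held for Lmnb1 (68 and 33 against -86 and -27). The share of all probe sets that separate so was not counted. Against vector, however, the E99 change was -0.10 for Des and 0.57 for Nes.

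The difference between the -/- and wild-type responses was tested directly. It was 2.30 ± 0.92 for Nes (95% interval 0.31 to 4.29, limma adjusted p = 0.83) and 1.34 ± 0.63 for Des (interval -0.02 to 2.70, adjusted p = 0.92), in a test that called 0.083% of probe sets. With SRF-VP16 itself, -/- cells were above wild type by 1.87 ± 0.65 for Nes and 1.36 ± 0.45 for Des (adjusted p = 0.33 and 0.29; 0.456% called). So neither gene was shown to respond differently in -/- and in wild-type cells. The responses of E81 and E100 differed by 0.45 for Nes, 0.20 for Des, -0.23 for Vim and 0.77 for Lmnb1, none called by limma (0.145% called). Of the 4 members 0 had an unadjusted p under 0.05, beside 1040 of 9643 probe sets. The median of all probe sets in this comparison was 0.52, and quantile normalization took it to 0, Nes to -0.51 and Des to -0.66. With vector as the control the Nes difference was 2.59 (adjusted p = 0.99). That of Vim was 1.23 without E81 SRFdM-VP16 replicate 1 and -1.70 without replicate 2.

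**Figure D2:**
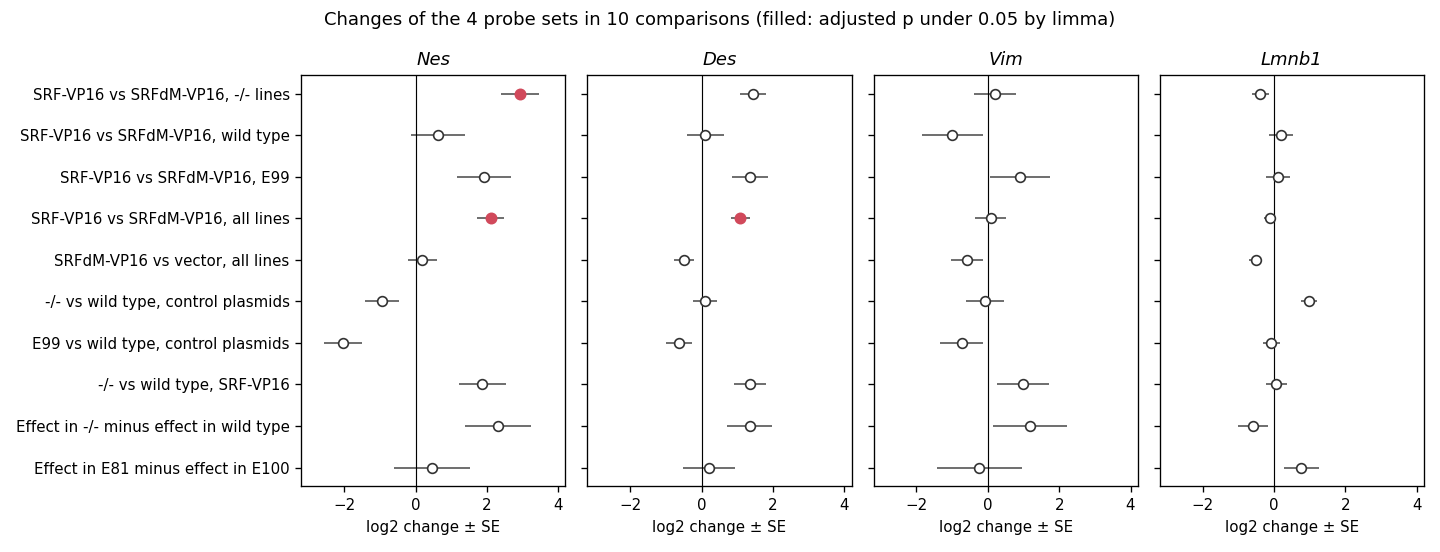
Log2 change (horizontal axis) with its SE for each of the 4 genes in 10 comparisons; filled points have an adjusted p under 0.05 by limma. Filled points appear for Nes in the -/- lines and over all lines and for Des over all lines.

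Among cells with control plasmids, Nes had its lowest group means in E99 with SRFdM-VP16 and in E81 with vector. Nes was lower in E99 than in wild type by 2.03 on the log2 scale (SE 0.53, 95% interval -3.18 to -0.89), but this did not pass over all probe sets (limma adjusted p = 0.42; 0.0726% called), and 1 of the 4 E99 arrays was at the floor. In the -/- lines with control plasmids Nes differed from wild type by -0.93 ± 0.48 (adjusted p = 0.85; 0.083% called). Des differed there by 0.09 and Vim by -0.08.

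SRFdM-VP16 against vector tests the control plasmid. It called 0.799% of probe sets and 0 of the 4 members by limma. For 1 member, Lmnb1, the unadjusted p was under 0.05, as for 1345 of 9643 probe sets. Nes differed by 0.19, Des by -0.50, Vim by -0.59 and Lmnb1 by -0.51, beside a median of -0.20 over all probe sets. Quantile normalization took that median to 0 and gave 0.53 for Nes, -0.11 for Des, -0.22 for Vim and -0.34 for Lmnb1.

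Ordered by group mean, Nes ran from E100 with SRF-VP16 (2552) and E81 with SRF-VP16 (2364) through E14wt with SRF-VP16 (618) to E99 with SRFdM-VP16 (29). Neighbouring groups overlapped in 9 of 11 pairs: the breaks lay below E81 with SRF-VP16 and between E99 with vector (191.5) and E81 with vector (43.5). For Des the order ran from E81 with SRF-VP16 (929.5) and E100 with SRF-VP16 (776.5) to E99 with SRFdM-VP16 (124), with 9 of 11 neighbouring pairs overlapping. Its breaks lay below E100 with SRF-VP16 and above E99 with SRFdM-VP16. For Vim the order ran from E100 with vector (408) to E14wt with SRF-VP16 (111), and for Lmnb1 from E100 with vector (179) to E81 with SRFdM-VP16 (-277), with 10 of 11 neighbouring pairs overlapping for each.

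**Figure D3:**
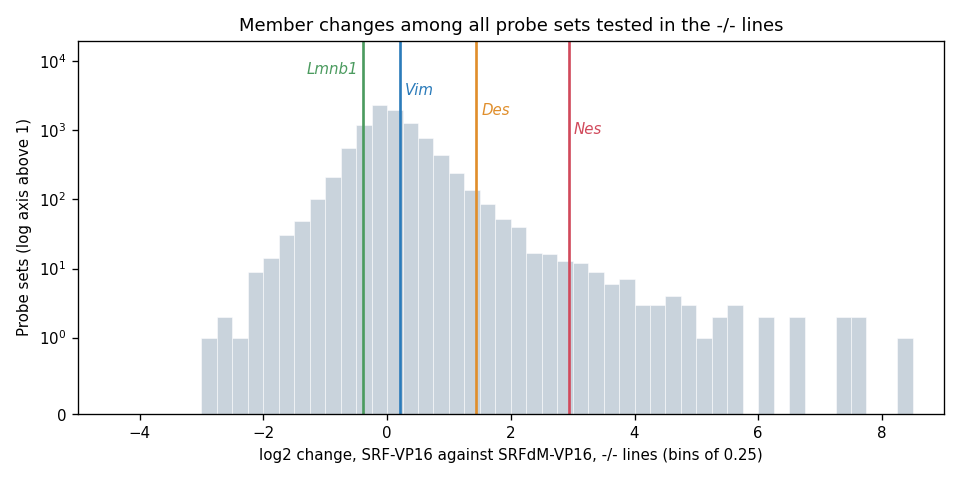
Number of probe sets (vertical axis, logarithmic above 1) by log2 change between SRF-VP16 and SRFdM-VP16 in the -/- lines, in bins of 0.25, with lines at the 4 members. Nes (2.93) lay in the upper tail, Des (1.44) at its start, and Vim (0.20) and Lmnb1 (-0.38) near the centre.

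Other filament genes moved unequally in the -/- lines. Of 10 further non-keratin intermediate filament genes 7 could be tested, and 0 passed with SRF-VP16 by limma (1 had an unadjusted p under 0.05, as did 1294 of 9643 probe sets). The median log2 change was -0.09, beside 0.04 over all probe sets. Ina, a neuronal filament gene, had -1.13 (adjusted p = 0.26), and Nefl, the light neurofilament chain, 0.68 (adjusted p = 0.42). Lmnb2, the other B-type lamin gene, had -0.42 (adjusted p = 0.77).

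All 5 simple epithelial keratins, the filament proteins of embryonic and simple epithelia, rose in the -/- lines, with a median of 4.30. Krt8 and Krt18, which pair with each other, rose by 3.61 ± 0.57 and 4.91 ± 0.89 (limma adjusted p = 0.0037 and 0.0081), Krt8 from 543 ± 379 to 6304 ± 4260. Krt7 rose by at least 4.30, since all its SRFdM-VP16 arrays were at the floor, Krt20 by 3.65 ± 0.51 and Krt19 by 5.69 ± 0.99. Of the 4 SRFdM-VP16 arrays 2 were at the floor for Krt20 and 3 for Krt19, so the sizes of both depend on the floor. The 5 calls held under quantile normalization, after division by the array median, against vector and without E81 SRFdM-VP16 replicate 1. Summed over the 5 genes, intensity was 11100 to 37723 with SRF-VP16 and 663 to 1384 with SRFdM-VP16 in the -/- lines, and in wild type it was already 1787 and 15619 on the SRFdM-VP16 arrays.

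Genes that anchor or protect filaments gave 1 call among 9 tested of 16 listed, with a median of 0.48. Dsp, desmoplakin, which ties keratin or desmin filaments to desmosomes, rose by 3.39 ± 0.66 (limma adjusted p = 0.012), from 596 ± 391 to 5170 ± 798, a call lost without E81 SRFdM-VP16 replicate 1. Jup, plakoglobin of the same junctions, had 0.92 (adjusted p = 0.076), and Plec, the linker plectin, 0.72 (adjusted p = 0.39).

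Nuclear envelope partners of the lamins gave 0 calls by limma among 8 tested of 15 listed (1 at an unadjusted p under 0.05), with a median of -0.12. Sun2, an inner nuclear membrane protein that joins the nucleus to the cytoskeleton, had 1.68 ± 0.76 (limma adjusted p = 0.35), and Emd, emerin, 0.20 (adjusted p = 0.71). Of lamin-processing enzymes and filament kinases 9 of 14 were tested, with a median of -0.27. Of these 9 genes 4 had a change above 0. Prkca, a protein kinase C that phosphorylates lamins and vimentin, was the 1 called (1.41 ± 0.29, limma adjusted p = 0.018), rising from 59.8 ± 125 to 272 ± 92.9. That call was lost against vector and without E81 SRFdM-VP16 replicate 1.

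**Figure D4:**
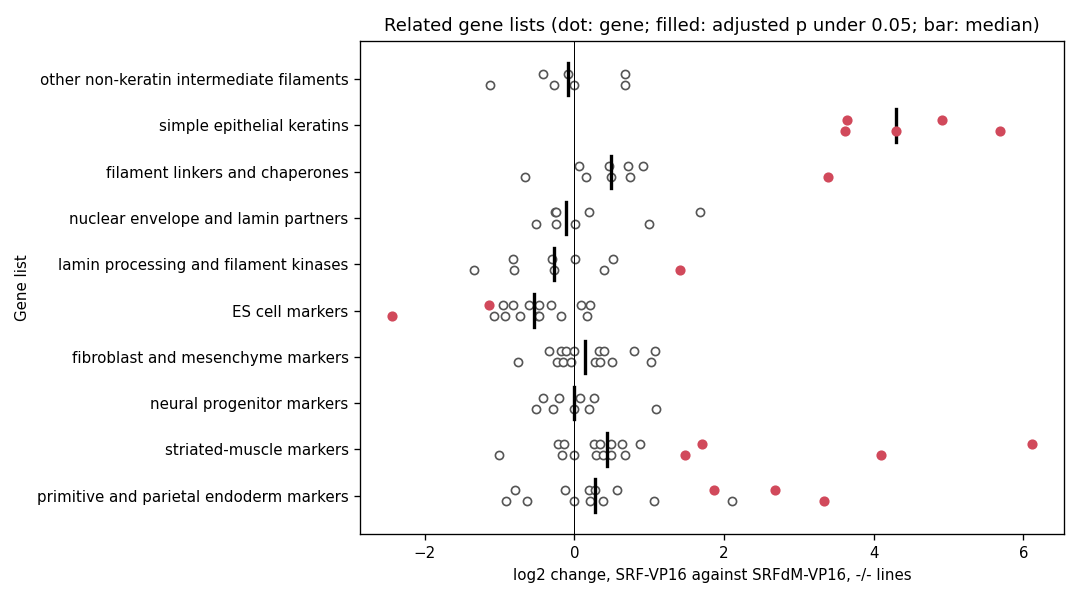
Log2 change between SRF-VP16 and SRFdM-VP16 in the -/- lines (horizontal axis) for the tested genes of 10 lists; each dot is 1 gene by its brightest probe set, filled where the adjusted p is under 0.05, and bars are list medians. The keratins stand apart at a median of 4.30, and the list of other non-keratin filaments holds no filled dot.

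Markers of the cell types known for each filament were read beside the members. Of 18 striated-muscle genes tested in the -/- lines, 13 had a change above 0 and 4 were called higher. These 4 were Nppb, a natriuretic peptide (6.11), Tnnc1, a troponin (at least 4.10, from the floor), Actn3, an actinin (1.71), and Atp2a1, a calcium pump (1.47). The Actn3 call was lost under quantile normalization, after division by the array median and against vector, where Myf6, a muscle regulator, was called lower. The muscle list summed to 7539 to 18796 with SRF-VP16 and 1855 to 5801 with SRFdM-VP16, and the median change was 0.44. Nppb alone averaged 7267 ± 3784 with SRF-VP16 and 67.8 ± 108 with SRFdM-VP16 (SD), so much of the rise in the sum came from 1 gene. The muscle regulator Myod1 read 482.5 ± 98.8 against 396 ± 84.2 and was above the floor on all 23 arrays. The part of these muscle genes in the Des values was not tested.

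Neural progenitor markers gave 0 calls by limma among 9 tested (1 at an unadjusted p under 0.05), with a median of -0.01, beside the rise of Nes. Their sum was 1662 to 2368 with SRF-VP16 and 1197 to 2060 with SRFdM-VP16. Fabp7, of radial glia, was above the floor on 0 of 23 arrays and Ncam1 on 1, and Pax6 averaged 55.8 ± 52.6 against 89.8 ± 51.8. Sox3 had the largest change of the list (1.09, limma adjusted p = 0.36).

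Fibroblast and mesenchyme markers gave 0 calls by limma among 16 (1 at an unadjusted p under 0.05), with a median of 0.14, and the collagen gene Col1a2 was above the floor on 1 of 23 arrays. Their sum overlapped between SRF-VP16 (5251 to 12552) and SRFdM-VP16 (6576 to 13348). Of 15 primitive and parietal endoderm genes 3 were called higher, the basement membrane genes Col4a1 (2.68), Col4a2 (1.86) and Hspg2 (3.34). The calls of Col4a1 and Col4a2 were lost without E81 SRFdM-VP16 replicate 1. The call of Col4a2 was also lost under quantile normalization and after division by the array median. The list had a median of 0.27 and a range of -0.92 to 3.34, with 10 of 15 genes above 0. Of 16 ES cell markers 2 were called lower, while only 3 of 16 had a change above 0, 7 had an unadjusted p under 0.05 and the median was -0.54. The count of calls rose without E81 SRFdM-VP16 replicate 1, was 4 under quantile normalization and was 1 against vector. Klf2 fell by 2.43 and Fgf4 fell by 1.15 on the log2 scale, and the list summed to 44020 to 75160 against 64577 to 132380. The part of these shifts in the Nes and Des values was not tested.

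The genes most like each member were sought by Pearson correlation of log2 group means over the 12 groups, which share lines, plasmids and array scaling. For Nes they were Nucb1 (r = 0.95), Mfge8, which encodes a secreted glycoprotein (0.94), and Pptc7 (0.93). Without the 4 SRF-VP16 groups these correlations were 0.88, 0.85 and 0.86. For Des they were Plin2, a lipid droplet protein (0.92), Rnf166 (0.92) and Junb, an immediate-early transcription factor (0.92). Junb averaged 341 ± 197 with SRFdM-VP16 and 1476 ± 457 with SRF-VP16 in the -/- lines, a log2 difference of 2.27 that did not pass (limma adjusted p = 0.12).

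For Vim the nearest were Gsx1 (0.94), Igk (0.91) and Htr1d (0.91), and for Lmnb1 Eif2ak3 (0.96), Padi4 (0.94) and Rreb1 (0.93), several of them near the floor. Among the members, Des and Nes had r = 0.82 (Spearman's rho 0.48), which was 0.50 over the 8 groups without SRF-VP16. Lmnb1 and Vim had r = 0.59, Des and Vim 0.28, and Vim and Nes 0.12. These correlations describe 12 points and carry no test.

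**Figure D5:**
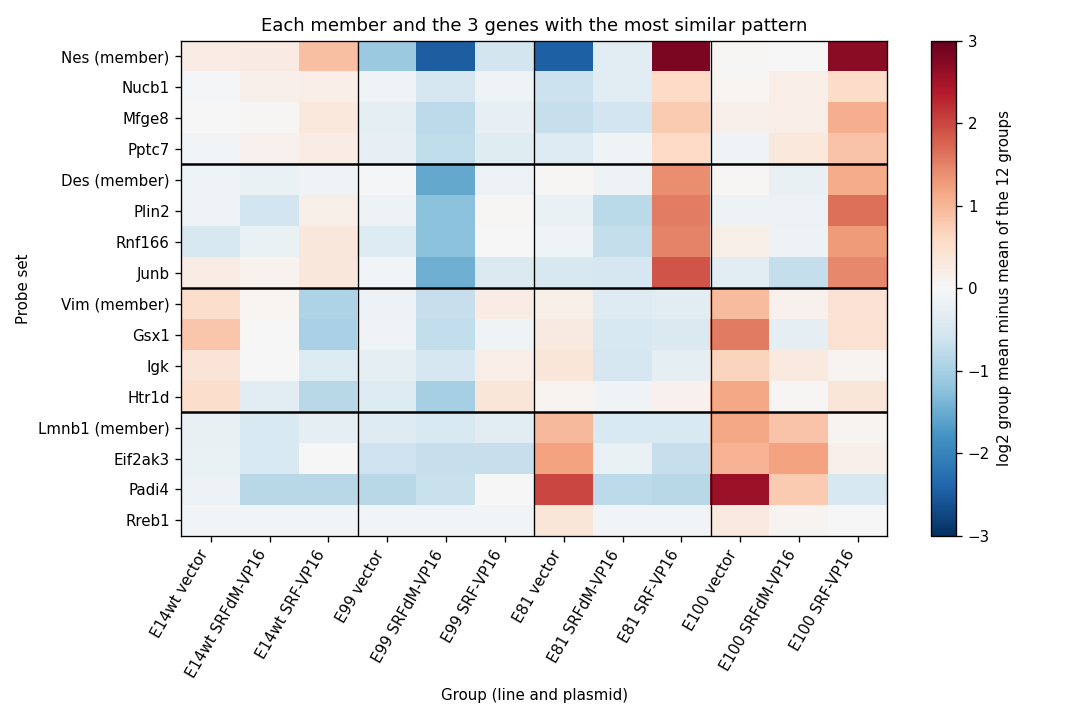
Log2 group mean minus the mean of the 12 groups (colour) for each member and its 3 most similar genes, by line and plasmid. Nes and Des share high values in E81 and E100 with SRF-VP16 and low values in E99 with SRFdM-VP16, while Vim is lowest in E14wt with SRF-VP16. Lmnb1 is high in E81 with vector, in E100 with vector (1 array) and in E100 with SRFdM-VP16.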

How the data were processed

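The deposited table holds 1 intensity per probe set and array, on a linear scale with negative values; the authors' scaling and background correction are not stated in any label or header. Column medians differ and values are not log2 transformed. After 66 control probe sets were left out, deposited intensities were raised to the 40th percentile of all values (58), log2 was taken, and probe sets above their array's 40th percentile on at least 2 arrays were kept (9643 of 12436). A mean per group was fitted with limma 3.58.1 in R 4.3.3 (eBayes with intensity trend, 11 residual degrees of freedom) over all 23 arrays, and contrasts were tested with Benjamini-Hochberg adjustment over all 9643 at 5%. A fold change is on this floored log2 scale and understates low genes. Precision is limited by how few arrays there are. Of all probe sets, 10141 had 1 symbol, 362 several and 1933 none. The fit was tested on simulated data.

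Every member was named in every comparison. For each list (brightest probe set per gene) up to 4 genes with the smallest adjusted p were named, and for each member the 3 genes with the highest correlation; Lmnb2, Krt18, Myod1, Fabp7 and other markers are named beside them as defining genes. The members and lists were chosen with earlier results of these data known. Alternatives changed scaling, floor, transform, filter, trend, control and groups, added a replicate block, and left out each array. The mean of both control plasmids as the control was added after seeing the data. Promoters and motifs come from RefSeq (GRCm38.p6).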

Additional observations from a re-analysis of the deposited data

How the results depend on the processing

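No called change of a member turned its direction under the alternatives run. Nes in the -/- lines ranged from 2.52 to 3.98 over 22 alternatives, with adjusted p from 0.0011 to 0.12, and was called in 19. It was not called in a fit of the compared groups only, in E81 alone or in E100 alone, where 0 members were called. In the same comparison 2 members were called, not 1, with the floor at the 60th percentile (Des 1.30, adjusted p = 0.0078), with the filter at the 60th percentile (0.037), without the intensity trend (0.033) and with the mean of both control plasmids as the control (0.038), each time with Des as the second. Against vector there were also 2, Nes and Lmnb1. The number of all probe sets called also changed with the setting, as given below. These counts, and those of the next paragraph, are therefore not read as results about the members. Leaving out 1 array gave 1 to 2 members (2 without E81 SRFdM-VP16 replicate 1).

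Over all lines the 2 calls became 1, with Des lost, after quantile normalization (0.83, adjusted p = 0.13), without the filter (0.056), in the compared groups only (0.087), without both wild-type control arrays numbered 2 (0.053), against vector (0.59, adjusted p = 0.34) and against the mean of both control plasmids (0.085). Leaving out 1 array gave 1 to 2 members, with Des lost in 12 of 16 cases and kept without replicate 2 of E14wt with either SRF plasmid, E81 SRFdM-VP16 replicate 1 or E100 SRF-VP16 replicate 2. For SRFdM-VP16 against vector the count of 0 became 1 under the inverse hyperbolic sine (Lmnb1 -2.57, adjusted p = 0.045), and leaving out 1 array gave 0 to 1 (1 without E81 vector replicate 1, Lmnb1 -0.67). For the -/- lines against wild type with control plasmids, 0 became 1 in E100 alone (Lmnb1), and leaving out 1 array gave 0 to 1. The causes were not tested.

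Deviations of same-numbered arrays within a line correlated at 0.248 to 0.417 in 6 of 10 pairs of groups, and below 0 (down to -0.349) in 4. The labels state no pairing and not every pair was above 0.1, so the numbers were not taken as pairing. With 2 arrays per group, however, the sign turns with the numbering, so this rule does not settle whether arrays were paired. The 4 values below 0 were those of SRF-VP16 with the control plasmids in E14wt and E99. Both wild-type control arrays numbered 2 had higher Nes (623 and 723 against 243.4 and 219). With the replicate block, 1 member was called in the -/- lines and 2 over all lines; with a replicate block within line the latter became 1 (Des, adjusted p = 0.096).

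Over all probe sets, the count in the -/- lines ran from 97 (E81 alone) to 514 (without E81 SRFdM-VP16 replicate 2), beside 272, and over all lines from 108 to 432, beside 189. Quantile normalization changed the split of higher to lower calls from 239 and 33 to 238 and 111 in the -/- lines, and from 173 and 16 to 167 and 74 over all lines. The control plasmid against vector (3 higher and 74 lower; 2 and 11 after division by the array median) ranged from 0 to 372 calls, beside 77; the difference between E81 and E100 ranged from 0 to 430, and the other 6 comparisons stayed at or below 106.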
